A study of Mus musculus with 6 samples.

Results

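Quantitative RT-PCR reports a transcript as a ratio to a reference gene, and 9 mouse genes often used for that purpose, Hprt, Actb, Gapdh, Tbp, Ppia, B2m, Gusb, Ywhaz and Sdha, were followed here through a knockdown of Qk in mouse primary oligodendrocyte precursor cells (mOPCs). They are 9 of the 23038 genes listed, and all 9 passed the filter on low counts that left 12505 genes for testing. The genes were selected by name, and the group was picked because Hprt rose strongly in these same libraries, so that the comparison of the siQk with the siNC libraries is given for the 9 genes as a description. No p is given for them, and edgeR's call rule serves only to count them beside the share of all tested genes. There were 3 libraries from mOPCs transfected with control siRNA (siNC) and 3 from mOPCs transfected with siRNAs against Qk (siQk), the gene of the Qki RNA-binding proteins. Per the study's methods the cells were immunopanned from E14.5 mouse embryos and harvested 3 days after transfection. The strain, the target of the control siRNA and the siRNA that each siQk library received, out of 3 different ones, are not given in the sources used here. Every difference is therefore relative to these siNC libraries, and a gene higher in siQk is as well a gene lower in siNC. The labels call the libraries biological replicates, and the methods call them independent cultures.

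A reference gene is chosen because its product serves a basic task in every cell, and it is usable only where its transcript keeps a fixed share of the mRNA across the conditions compared. The 9 genes belong to unrelated processes. Hprt salvages purines, and Actb and Ywhaz encode an abundant cytoskeletal protein and an abundant 14-3-3 adaptor protein. Gapdh and Sdha encode enzymes of glycolysis and of the citric acid cycle, Tbp starts transcription and Ppia folds proteins at proline bonds. B2m is the light chain of MHC class I molecules, and Gusb degrades sugar chains in lysosomes. In the study itself qRT-PCR values were taken relative to mouse Gapdh or human GAPDH. The mouse values shown there came from motor neuron-like cells, and no qRT-PCR is described for mOPCs.

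The libraries held 58166490 to 141045937 tags, and the level of a gene is given as RPKM, the tags of the gene scaled by its exon length and by the total of the library. Qk was at 209, 206 and 163 RPKM in the siNC libraries and at 51.3, 76.6 and 36.2 RPKM in the siQk libraries, lower in every siQk library, with a log2 fold change of -1.98 ± 0.28 (SE, n = 3 and 3). The markers of OPCs, Pdgfra, Cspg4, Olig1, Olig2, Sox10 and Gpr17, summed to 735 to 770 RPKM in siNC and to 1007 to 1113 RPKM in siQk. Cspg4, Olig1 and Olig2 were called higher, at log2 fold changes of 0.93, 0.43 and 0.69. Pdgfra, Sox10 and Gpr17 were not called, at 0.10, -0.02 and 0.14. Sums of other marker lists also moved with the groups. Myelin genes summed to 2358 to 4542 RPKM in siNC and 957 to 1566 RPKM in siQk, astrocyte markers to 84.1 to 135 and 20.8 to 24.9, and 8 cell cycle genes to 34.8 to 40.4 and 82.7 to 164, while the sums of neuron markers, mostly Tubb3, overlapped at 100 to 170 and 74.9 to 114. Among the neuron markers Snap25, of the synaptic fusion machinery, was called higher, from 0.75 to 5.18 RPKM on average (log2 fold change 2.64 ± 0.32, edgeR adjusted p = 0.0021). Syt1 averaged 1.55 and 3.14 RPKM and was not called. Tubb3 and Rbfox3 went the other way, from 123 to 91.9 and from 0.55 to 0.41 RPKM on average, and were not called either. Microglia markers were low and summed to 0.70 to 3.30 RPKM in siNC and 0.30 to 0.40 RPKM in siQk. Among them P2ry12 was called lower, from 1.69 to 0.21 RPKM on average (log2 fold change -3.16 ± 0.61, edgeR adjusted p = 0.0089). P2ry12 was the only microglia marker high enough to be tested. The other 4 averaged at most 0.12 RPKM in either group. Of these, Aif1, Cx3cr1 and Tmem119 were higher on average in siQk, and Csf1r was lower. The fibroblast and vascular markers stayed at or under 0.30 RPKM in sum in every library. Whether any of these marker changes has a part in the values of the reference genes was not tested. Fewer cells of a type and less RNA per cell cannot be told apart in these bulk libraries. The siNC library of replicate 1 was the shallowest and carried 3.11% of its tags on Rn45s, a precursor of ribosomal RNA, where the remaining 5 libraries carried 0.17% to 0.39%.

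Hprt stood apart from the other 8 genes. Its RPKM was 8.67, 15.5 and 12.8 in the siNC libraries and 84.1, 69.6 and 77.9 in the siQk libraries. Every siQk library lay above every siNC library, and the lowest siQk value was still several times the highest siNC value. The means were 12.3 ± 3.42 and 77.2 ± 7.28 RPKM (SD, n = 3 each), and the log2 fold change was 2.50 ± 0.19 (SE), a fold of 5.67. Of the 12505 genes tested, 9 had a log2 fold change at least that high, Hprt included, and the gene was covered by 680 to 16000 tags per library. Leaving out any 1 library kept its log2 fold change between 2.34 and 2.69. The rank and this range come from the contrast by which Hprt was picked and only describe it.

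Tbp, the TATA-binding protein of the TFIID complex, was the other gene of the set past the call rule (p below 0.01 and FDR below 0.1). Its RPKM was 12.6, 12.5 and 13.3 in siNC and 17.7, 17.5 and 17.8 in siQk. The groups did not overlap, and the siQk libraries differed among themselves by less than the siNC libraries did. Its log2 fold change was 0.32 ± 0.06 (SE), far smaller than that of Hprt. Thus 2 of the 9 genes, both higher, passed the rule by which 31.0% of all tested genes were called, 13.8% higher and 17.2% lower. The whole-table share rests on 3879 genes and came to 2478 genes without the siQk library of replicate 1. Because the set was picked on this contrast, nothing is read from its share.

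Sdha, the flavoprotein subunit of succinate dehydrogenase, was at 94.0, 104 and 109 RPKM in siNC and 116, 120 and 115 RPKM in siQk. Gusb, the lysosomal β-glucuronidase, was at 5.96, 5.33 and 5.52 in siNC and 6.23, 6.71 and 6.33 in siQk. Ppia, cyclophilin A, was at 5.14, 5.48 and 5.21 in siNC and 6.17, 6.52 and 6.05 in siQk. In each of these genes every siQk library was above every siNC library in RPKM, by a small margin. The log2 fold changes were 0.05 ± 0.06 for Sdha, 0.04 ± 0.09 for Gusb and 0.09 ± 0.11 for Ppia (SE), none past the call rule.

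The small margin depended on the scale. RPKM divides by all tags of a library, whereas edgeR's TMM factors, 0.90 to 0.99 in siNC and 1.04 to 1.07 in siQk, allow for genes that take an unequal share. Without them the tested genes had a median log2 fold change of 0.16 in place of 0.01, a shift of 0.15 shared by all genes. In RPKM, 5 of the 9 genes had siQk values that lay wholly above siNC and 0 wholly below, beside 41.9% of all tested genes wholly above. After TMM scaling only Hprt, Tbp and Ppia kept groups that did not overlap, 3 of 9 beside 54.4% of all tested genes in either direction.

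Actb was the most abundant of the set, at 1053, 925 and 994 RPKM in siNC and 998, 1009 and 1027 RPKM in siQk. Ywhaz was at 37.4, 43.4 and 37.6 RPKM in siNC and 41.0, 41.1 and 37.0 RPKM in siQk. The siQk values of both genes lay within the siNC range or close to its edge. Their log2 fold changes were -0.13 ± 0.10 for Actb and -0.14 ± 0.08 for Ywhaz (SE), and both turned positive, 0.03 and 0.01, with library size as the sole scaling.

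B2m, the light chain of MHC class I molecules, was at 54.0, 62.0 and 44.7 RPKM in siNC and 52.0, 49.7 and 50.5 RPKM in siQk. The siQk libraries lay inside the siNC range, which was wide: the mean was 53.5 ± 8.66 RPKM in siNC and 50.7 ± 1.15 RPKM in siQk (SD, n = 3 each). Its log2 fold change was -0.23 ± 0.13 (SE) and was not called. It was called at -0.37 without the siNC library of replicate 3, the lowest of its group in B2m.

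Gapdh, the glycolytic enzyme that served as the study's qRT-PCR control in other mouse cells, was at 1.51, 1.37 and 1.36 RPKM in siNC and 2.09, 1.47 and 1.93 RPKM in siQk. The groups overlapped through the siQk library of replicate 2, and the log2 fold change was 0.23 ± 0.19 (SE). It was 0.12 without the siQk library of replicate 1 and 0.37 without that of replicate 2. Its values rested on 105 to 353 tags per library, the fewest of the 9 genes. The 16 other genes of glycolysis and lactate dehydrogenase had siNC means from 2.52 RPKM for Hk2 to 193 RPKM for Pkm, with a median of 29.2 RPKM, all above the 1.41 RPKM of Gapdh.

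**Figure D1:**
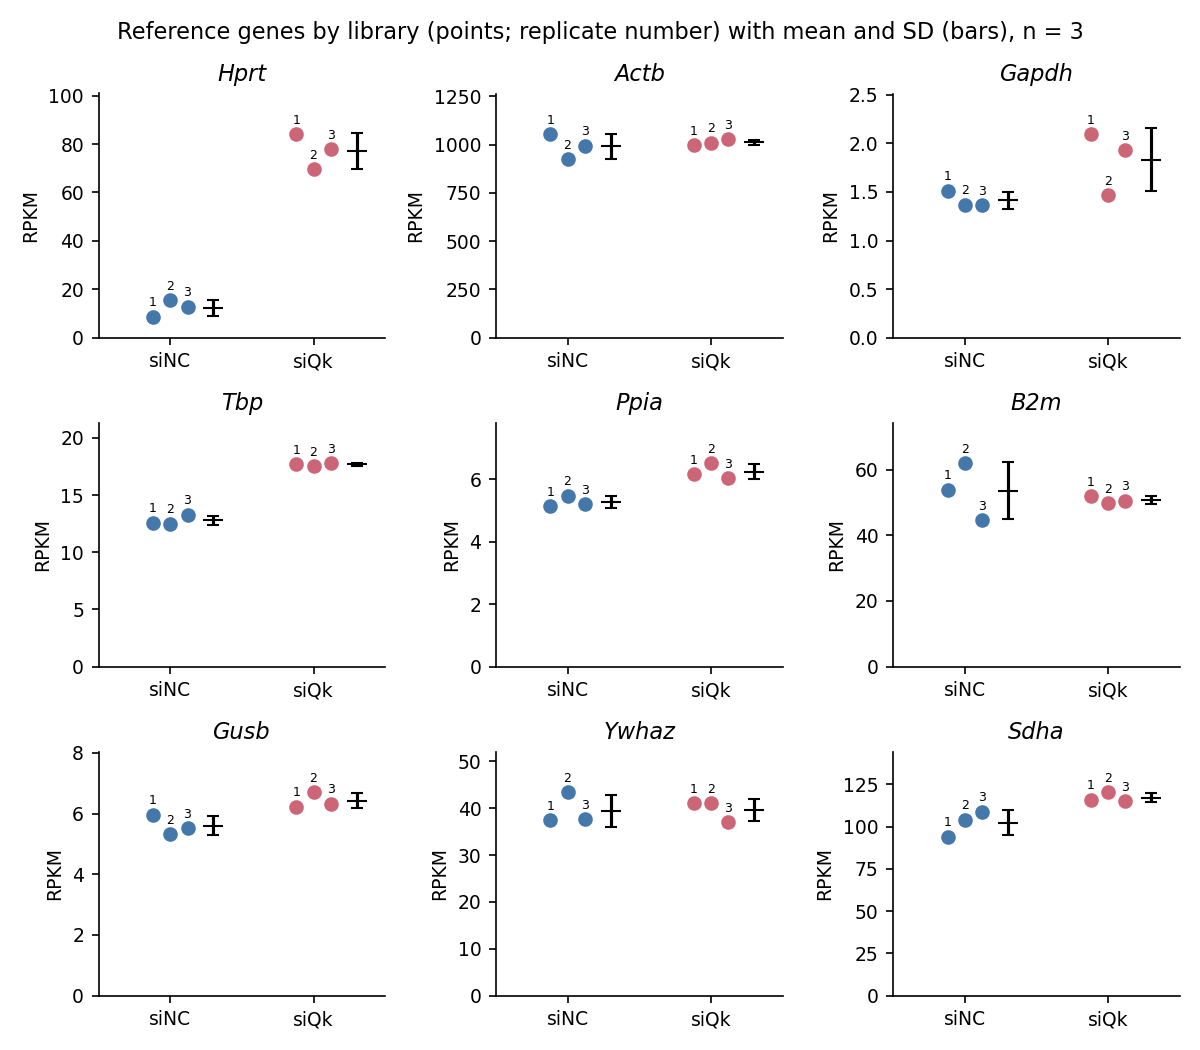
RPKM of each of the 9 reference genes (one panel each, vertical axis from 0) in the 3 siNC and 3 siQk libraries; points are libraries with their replicate number, and the bars beside them give the mean and SD. Hprt rose from 12.3 to 77.2 RPKM on average, Tbp from 12.8 to 17.7 RPKM, and the remaining panels show differences of at most 1.30-fold between the means.

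The levels of Gapdh and Ppia were read beside the sequence that their transcripts share with other genes. A read that fits several places cannot be assigned to 1 gene by its own sequence alone. How the authors treated such reads is not given in the sources used here. The reads were paired, but windows were compared singly, so that a mate in unshared sequence was not considered. In the GENCODE M21 annotation of mm10, every one of the 928 windows of 75 bases, the length of a read, in the Gapdh coding sequence also occurs without mismatch in a transcript of another gene, and so does every one of the 421 windows of the Ppia coding sequence. In Ywhaz 70 of 664 coding windows are found in no other gene, in Actb 1006 of 1054, and in Hprt, Tbp, B2m, Gusb and Sdha all of them. Of the 341 other genes that share at least 1 window of 30 bases with Gapdh, 329 are annotated as pseudogenes, and of the 57 that do so with Ppia, 52 are. Processed pseudogenes are intronless copies of an mRNA that were inserted back into the genome. The coding window that the most other genes hold is printed for the 3 genes with the fewest windows of their own, in lower case throughout because every base of each is shared.
Gapdh: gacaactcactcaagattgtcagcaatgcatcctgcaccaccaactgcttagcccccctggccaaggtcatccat
Ppia: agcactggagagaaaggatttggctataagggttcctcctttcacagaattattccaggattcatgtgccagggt
Ywhaz: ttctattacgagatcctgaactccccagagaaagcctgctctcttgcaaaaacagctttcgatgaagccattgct

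The Gapdh window lies in exon 4 at chr6:125162873-125162947 (mm10, minus strand), coding bases 415 to 489, and 49 other annotated genes hold it unaltered. The Ppia window joins exons 3 and 4 between positions 6418243 and 6419115 of chromosome 11 (plus strand), coding bases 118 to 192, and is held by 11 other genes. The Ywhaz window joins exons 5 and 6 between positions 36775314 and 36775469 of chromosome 15 (minus strand), coding bases 529 to 603, and is held by 2 other genes. Over whole transcripts, 88.1% of the 75-base windows of Gapdh, 51.0% of those of Ppia, 18.5% of those of Ywhaz and 2.60% of those of Actb are shared, and none of those of the remaining 5 genes.

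Among these 9 genes and 35 other genes used as references, 6 shared over 50% of their windows: Gapdh, Ppia, Pgk1, Vcp, Rpl27 and Rps18. Their mean RPKM over the 6 libraries ran from 1.62 to 29.3, with a median of 6.92, whereas the other 38 genes ran from 6.01 to 2108 with a median of 101. Gapdh had both the highest share and the lowest level. Below 50%, Eef1a1 had 39.7% of windows shared and a level of 2108 RPKM, and Gusb was low, 6.01 RPKM, with none shared. The part of shared sequence in the low levels was not tested.

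**Figure D2:**
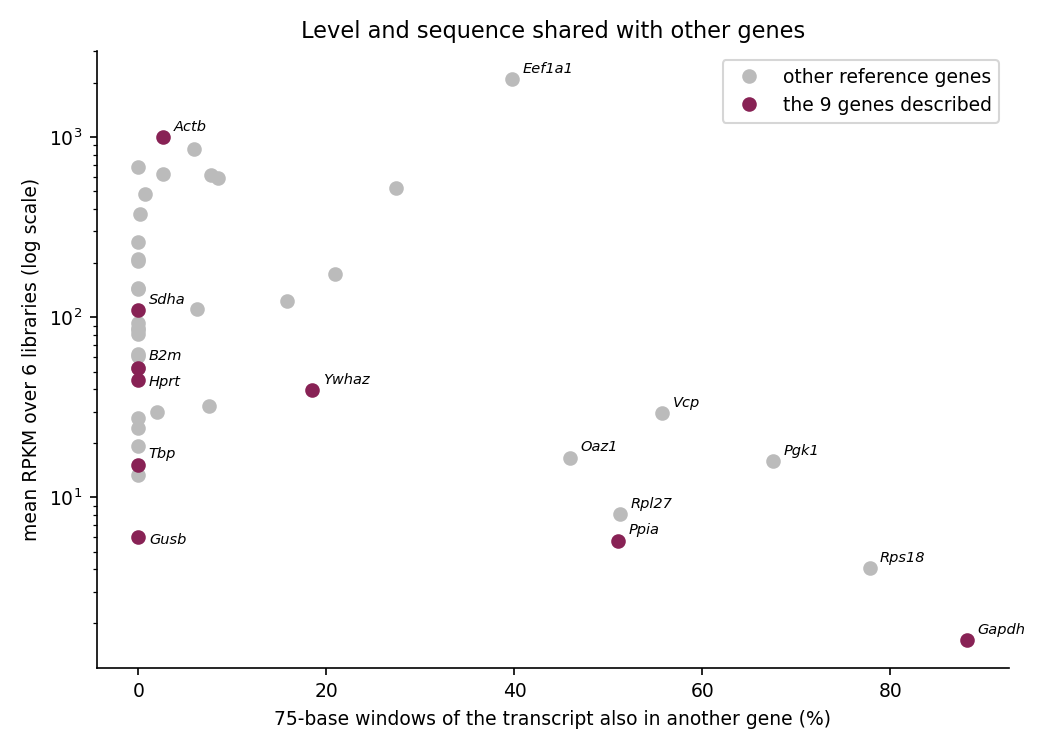
Mean RPKM over the 6 libraries (log scale) against the percentage of a transcript's 75-base windows that also occur in another annotated gene, for the 9 reference genes described and 35 other genes used as references. Gapdh lies at 88.1% and 1.62 RPKM, and the 6 genes beyond 50% all lie at or under 29.3 RPKM.

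Ratios between 2 genes of the same library do not depend on library size or on any scaling factor, as in a qRT-PCR assay. Relative to the geometric mean of the other 8 genes, log2 Hprt was at -1.48, -0.66 and -0.88 in siNC and 1.60, 1.37 and 1.52 in siQk, a mean difference of 2.51 on the log2 scale. Against single genes the difference in log2 Hprt ran from 2.22 with Tbp as the divisor to 2.75 with B2m as the divisor, folds of 4.65 to 6.73. Of the 28 pairs that leave out Hprt, 27 shifted by less than 0.5 on the log2 scale between the groups, and the ratio ranges of 19 pairs overlapped. The exception was Tbp against B2m, at 0.53. Gusb against Sdha had the same mean log2 ratio in both groups to 2 decimals, -4.19, with SDs of 0.18 in siNC and 0.03 in siQk.

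**Figure D3:**
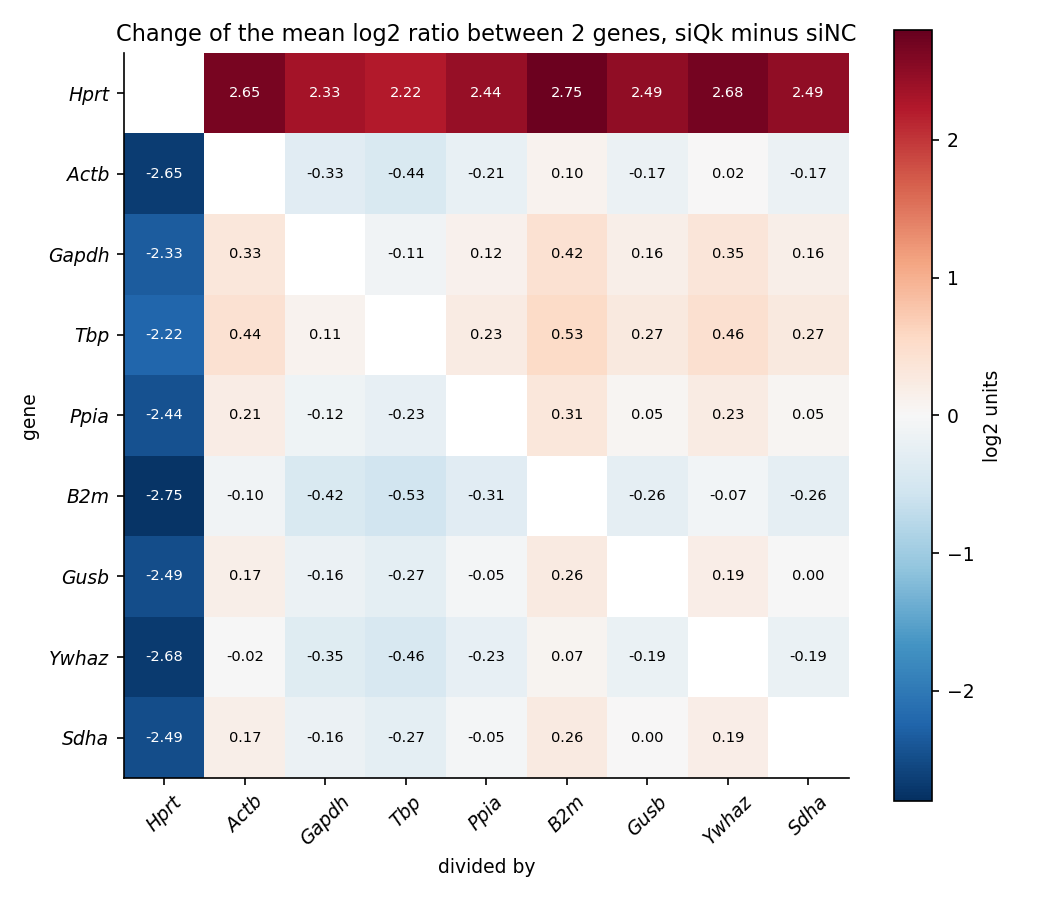
Change of the mean log2 ratio between each pair of reference genes, siQk minus siNC, with the gene in rows divided by the gene in columns. The Hprt row runs from 2.22 to 2.75, and no other pair exceeds 0.53 in size.

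The spread within a group was not used to pick the genes. It was summarised as the geNorm M, which is the mean SD of a gene's log2 ratios to each of the other 8 genes, so that a lower M stands for a steadier gene. Within the siNC libraries M was 0.43 for Hprt and 0.27 for B2m, and 0.15 to 0.19 for the other 7 genes, with Ppia lowest. Within the siQk libraries M was 0.27 for Gapdh and 0.15 for Hprt, and 0.09 to 0.12 for the others. Hence Hprt was also the most variable gene among control libraries, but this rested on the siNC library of replicate 1, without which its M was 0.19. The high M of Gapdh in siQk likewise fell to 0.064 without the siQk library of replicate 2. Over all 6 libraries M was 1.40 for Hprt, and without Hprt in the set it ran from 0.15 for Ppia to 0.25 for Gapdh. These M values over both groups carry the contrast by which Hprt was picked and are descriptions of it.

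After TMM scaling, the SD of log2 CPM (tags over the scaled library total) over all 6 libraries was 0.04 for Sdha, 0.07 for Ppia and 0.10 for Gusb, beside a median of 0.20 over all tested genes. Only 0.75% of tested genes had a smaller SD than Sdha, 6.17% a smaller one than Ppia and 15.9% a smaller one than Gusb. Actb and Ywhaz were at 0.12 each, Tbp at 0.18, B2m at 0.21, Gapdh at 0.23 and Hprt at 1.41, the last higher than 99.4% of tested genes. These SDs also carry the contrast between the groups, and they hold on the TMM scale. With library size as the sole scaling, the log2 fold changes of Sdha, Ppia and Gusb were 0.19, 0.24 and 0.20.

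The choice of the reference gene changed the apparent depth of the Qk knockdown. Relative to any single one of the 8 genes other than Hprt, Qk in siQk was left at 19.7% of siNC with Tbp to 28.5% with B2m. Relative to Gapdh, Qk was left at 21.2% (15.5% to 29.1% at 1 SE of the mean log2 ratio), and relative to Sdha at 23.8% (18.8% to 30.1%). These intervals overlapped, since Qk itself varied among the siQk libraries. Relative to Hprt, Qk was left at 4.24% (3.05% to 5.87%), below the interval given by any of the other 8 genes. This low value follows from the rise for which Hprt was picked and is a description of it. The geometric mean of the 8 gave 24.0%, and adding Hprt as a ninth gene gave 19.8%.

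**Figure D4:**
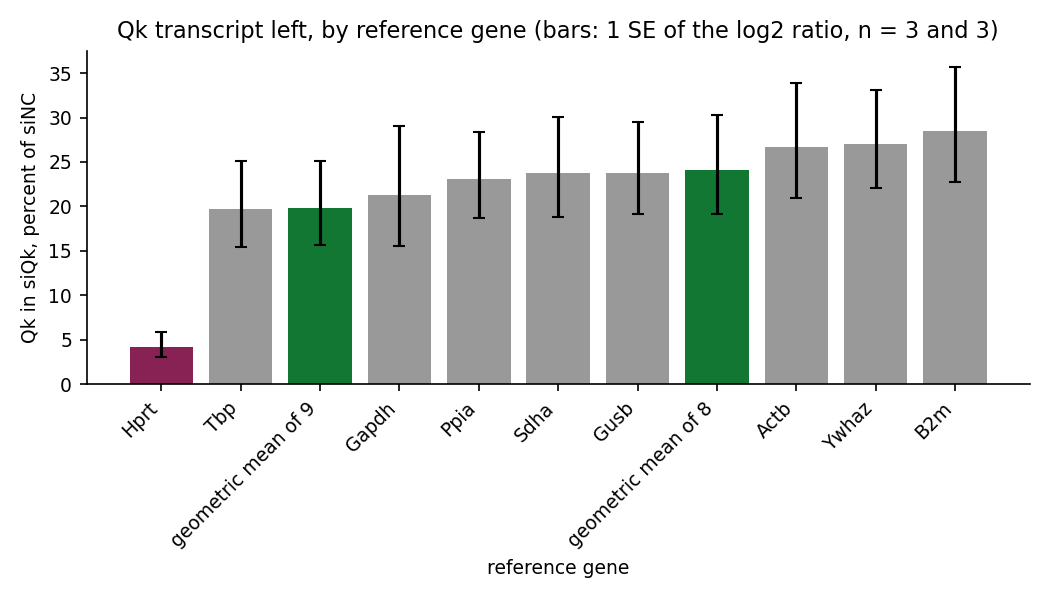
Qk transcript in the siQk libraries as a percentage of siNC (bars from 0) when divided by each reference gene or by the geometric mean of 8 (without Hprt) or 9 genes; error bars are 1 SE of the mean log2 ratio difference, n = 3 and 3. Hprt gave 4.24%, and the other single genes 19.7% to 28.5%. The low value with Hprt follows from the rise for which that gene was picked.

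The 36 other genes used as qRT-PCR references served for comparison, and each was tested in the same edgeR fit with the Benjamini-Hochberg adjustment over all 12505 genes. Of the 36, 5 were called higher and 5 lower, while 26 were not called, beside 13.8% higher and 17.2% lower over all tested genes. Their median log2 fold change was 0.04 beside 0.01 over all tested genes. With upper quartile factors the split was 7 higher and 4 lower, and with library size as the sole scaling 10 higher and 2 lower. The count of called genes fell to 4 without the siQk library of replicate 2 and to 5 without that of replicate 1. The smallest changes were those of Cyc1 at -0.02 ± 0.05, a subunit of respiratory complex III, Psmb2 at -0.03 ± 0.07, a proteasome subunit, and Vcp at 0.03 ± 0.06, an AAA ATPase (log2, SE). The largest were those of Reep5 at -0.93 ± 0.28 (adjusted p = 0.039, not called because its unadjusted p missed the rule), of Emc7, listed as 2900064A13Rik, at -0.82 ± 0.09 (adjusted p = 0.0016), and of the ribosomal protein gene Rplp0 at 0.77 ± 0.19 (adjusted p = 0.021). Rplp0 was at 418, 395 and 266 RPKM in siNC and 704, 724 and 632 RPKM in siQk. None of the 36 reached the log2 fold change of Hprt in size.

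**Figure D5:**
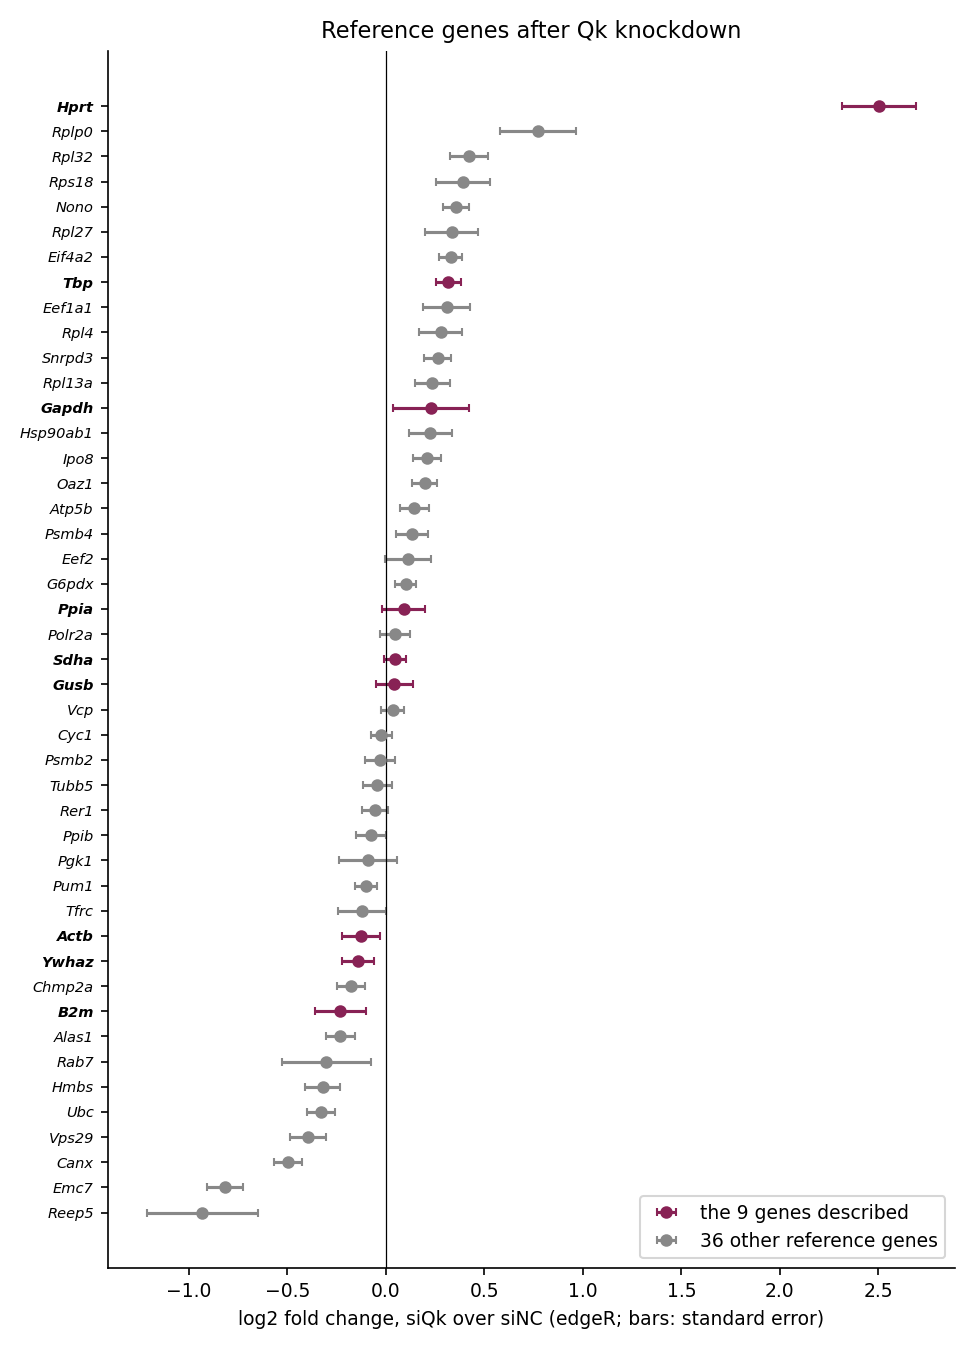
Log2 fold change, siQk over siNC, with its standard error from edgeR for the 9 reference genes described (bold) and 36 others, ordered by size. Hprt lies at 2.50, the next highest gene is Rplp0 at 0.77, and the lowest is Reep5 at -0.93.

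The pathways around each gene were read from the same fit. Their counts stand beside the 31.0% of all tested genes that were called, 13.8% higher and 17.2% lower. Hprt returns hypoxanthine and guanine to the nucleotide pool, and of 21 genes of purine salvage and synthesis 18 were tested, with 7 called higher, 3 lower and 8 not called (median log2 fold change 0.21). With library size as the sole scaling 9 were called higher and 0 lower. The count of 10 fell to 5 without the siNC library of replicate 1 and to 6 without any 1 of the siNC library of replicate 3 and the siQk libraries of replicates 1 and 2. Highest among the called genes were Impdh1, which commits IMP to guanine nucleotides, at 0.72 ± 0.06 (adjusted p = 0.000895), and Atic, which closes the purine ring, at 0.61 ± 0.09 (adjusted p = 0.0038). Lowest among them were Prps2, a maker of phosphoribosyl pyrophosphate, at -0.49 ± 0.11 (adjusted p = 0.015), and Paics of the de novo pathway at -0.41 ± 0.08 (adjusted p = 0.0089). Aprt, the salvage enzyme for adenine, averaged 55.2 RPKM in siNC and 70.2 RPKM in siQk and was not called.

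Hprt is X-linked and lies at chrX:52988137-53021659 (mm10, plus strand). Of the 5 protein-coding genes annotated on each side, within 1015 kb, 5 were tested, and the nearest on the lower-numbered side, Phf6, was called higher at 0.40 ± 0.10 (adjusted p = 0.025). Fam122b, 222 kb away on the other side, was called higher at 0.92 ± 0.24 (adjusted p = 0.024), from 4.39 to 9.29 RPKM on average. Both calls were lost without any 1 of the siQk libraries, and 1 of them without the siNC library of replicate 1 or 2. The other 3 tested neighbours, Gpc4, Gpc3 and Mospd1, were not called. Plac1, the nearest on the higher-numbered side at 48.3 kb, was too low to be tested. It was at 0.12, 0.24 and 0.12 RPKM in siNC and 0.48, 0.62 and 0.65 RPKM in siQk. Among 396 tested X chromosome genes, 16.4% were called higher and 17.7% lower, beside 13.8% and 17.2% of the other genes, and Hprt had the highest log2 fold change of them. Xist, the RNA that coats the inactive X chromosome, ranged from 92.6 to 102 RPKM in siNC and from 109 to 128 RPKM in siQk and was not called (log2 fold change 0.11 ± 0.08), and all 13 Y chromosome genes in the tables were listed at 0 in every library.

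For Actb, the only tested isoform was Actg1, the other cytoplasmic actin, at 42.7, 38.6 and 46.2 RPKM in siNC and 41.3, 31.9 and 40.3 RPKM in siQk, which was not called (log2 fold change -0.32 ± 0.12, adjusted p = 0.081), but was called lower with the replicate number as a block. The muscle actins stayed under 0.38 RPKM. For Gapdh, 2 of 16 other glycolytic enzymes and lactate dehydrogenases were called, both higher: Pkm, the pyruvate kinase, at 0.51 ± 0.06 (adjusted p = 0.0021), and Hk1, a hexokinase, at 0.32 ± 0.09 (adjusted p = 0.027). The median of the list was 0.02. Pgk1, itself a common reference gene, averaged 15.6 RPKM in siNC and 16.2 RPKM in siQk and was not called (-0.09 ± 0.15). Without any 1 of the siQk libraries a single glycolytic gene was called.

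For Tbp, 3 of 14 genes of TFIID and the Tbp paralog were called. Taf13 fell from 34.1 to 17.5 RPKM, a log2 fold change of -1.12 ± 0.10 (adjusted p = 0.000936), whereas Taf12 at 0.25 ± 0.07 and Taf6 at 0.21 ± 0.06 were higher (adjusted p = 0.030 and 0.029 from edgeR). The higher calls of Taf12 and Taf6 were lost without any 1 of the 6 libraries. For Ppia, 2 of 15 other genes with a cyclophilin domain were called higher, Ppil3 at 0.43 ± 0.11 (adjusted p = 0.025) and Ppid at 0.36 ± 0.07 (adjusted p = 0.0087), and 7 with library size as the sole scaling. The count was 1 without the siNC library of replicate 1 or 2 or without the siQk library of replicate 1 or 3. Ppib, the cyclophilin of the endoplasmic reticulum, averaged 365 RPKM in siNC and 383 RPKM in siQk and was not called (-0.08 ± 0.08).

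For B2m, 7 of 13 genes of MHC class I presentation could be tested and 0 were called by edgeR at the rule. The 2 at an unadjusted edgeR p below 0.05 were both lower. They were Hfe at -1.20 ± 0.36 (edgeR adjusted p = 0.038, its unadjusted p missing the rule) and Nlrc5 at -1.10 ± 0.39 (edgeR adjusted p = 0.067). DESeq2 called 2 genes of the list, both lower. H2-D1, the class I heavy chain with the highest level, was at 33.7, 44.1 and 18.7 RPKM in siNC and 36.5, 38.9 and 35.9 RPKM in siQk. Like B2m it was lowest in the siNC library of replicate 3.

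For Gusb, 5 of 17 tested lysosomal glycosidases and sulfatases were called, all 5 lower. Galc, which degrades the myelin lipid galactosylceramide, fell from 34.2 to 10.9 RPKM with a log2 fold change of -1.80 ± 0.09 (adjusted p = 3.4e-04), and the arylsulfatase Arsb fell from 24.6 to 9.29 RPKM with -1.56 ± 0.28 (adjusted p = 0.0074). Myelin genes fell in the same libraries, as given above, and their part in these values was not tested. Fuca1, which removes fucose, was called at -0.26 ± 0.07 (adjusted p = 0.029). The count was 3 with library size as the sole scaling.

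For Ywhaz, 3 of 5 tested 14-3-3 genes were called lower: Ywhae at -0.57 ± 0.09 (adjusted p = 0.0042), Ywhaq at -0.37 ± 0.10 (adjusted p = 0.029) and Ywhab at -0.24 ± 0.06 (adjusted p = 0.028). The count fell to 1 without any 1 library other than the siNC library of replicate 3, and 1 was called higher and 1 lower with upper quartile factors or library size as the sole scaling. For Sdha, 2 of 7 genes of succinate dehydrogenase and its assembly were called lower, Sdhc, a membrane anchor subunit, at -0.24 ± 0.06 (adjusted p = 0.018) and Sdhaf4, an assembly factor listed as 1110058L19Rik, at -0.42 ± 0.07 (adjusted p = 0.0069). These are small changes, 112 to 106 RPKM for Sdhc, and both calls were lost with library size as the sole scaling. The count was 1 without the siNC library of replicate 1 or any 1 siQk library.

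The genes most like Hprt were the 5 with the smallest root mean square difference from its log2 CPM, centred on the siNC mean, over the 6 libraries, among 10038 other genes with an average logCPM over 3. They were Nucb2, a calcium-binding protein, with a difference of 0.28, then Troap at 0.43, Cdc25c, a phosphatase of mitotic entry, at 0.45, Hes5, a Notch target, at 0.49 and Kcnc1, a potassium channel, at 0.52. Nucb2 was at 3.56, 5.67 and 5.92 RPKM in siNC and 24.7, 23.8 and 25.5 RPKM in siQk, so that it shared with Hprt the low value of the siNC library of replicate 1. None of these 5 genes is on the X chromosome. The likeness was measured on the contrast that picked Hprt and is a description.

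The motifs that the Qki proteins bind, ACTAAC and ACTAAT in DNA letters on the sense strand, were sought in 3′UTRs of GENCODE M21, taking the longest for every gene. Of 20657 genes with such a region, 32.6% hold at least 1 match. Hprt holds 0 in 545 bases, where 16.7% of genes of similar length hold one, and Actb, Gapdh, Ppia, B2m, Gusb, Ywhaz and Sdha hold 0 as well. Tbp holds 7, but in an annotated region of 11596 bases that the deposited exon length of 2152 bases cannot include, and the 3′UTR of 644 bases in the transcript closest to that length holds 0. Qk itself holds 5 in 7014 bases. Of genes similar in length to the 11596 bases of Tbp and the 7014 of Qk, 95.8% and 90.8% hold at least 1. In the 300 bases around the RefSeq start site, available for 7 of the 9 genes, GGGCGG or its complement CCGCCC occurred 3 times in Hprt, 4 times in Ppia and once in Tbp, beside 35.7% of all promoters with at least 1. TATAAA, sought on both strands, occurred in B2m and Ppia, beside 13.6% of all promoters. These matches describe letters and not binding.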

How the data were processed

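mRNA of mOPCs was sequenced as 75-nt paired-end reads from polyadenylated RNA, which the authors mapped on mm10 (OLego) and counted per gene (Quantas). Deposited by the authors were, per library and gene, an estimated count (tag number, with decimals for 23.1% to 26.2% of genes, not normalized), another value that is the exon length in bases, and RPKM. RPKM recomputed from the first columns matched the deposited RPKM.

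Counts were rounded, genes with an average logCPM over 0 were kept (12505), TMM factors were set on them, and edgeR 4.0.16 (limma 3.58.1, R 4.3.3) quasi-likelihood tests were run with the group as the only term. The call rule was p below 0.01 and Benjamini-Hochberg FDR below 0.1. A standard error is the log2 fold change in size over the root of F. With 3 libraries a group, spreads are SDs over 3 values, and depth was 58166490 to 141045937 tags a library. No libraries of a group agreed within sampling noise (chi-square per degree of freedom 31.7 or more). The fit was tested on simulated data.

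The members and lists were chosen with earlier results of these data known. Named were the 9 genes and Qk. From a list they were every called gene where up to 4 were called, otherwise the 2 highest and 2 lowest, with Actg1, Ppib and Pgk1 always. From other reference genes they were the 3 smallest and 3 largest changes. Genes that set a comparison of levels were chosen after their values were seen. They were Hk2, Snap25, Syt1, Tubb3, Rbfox3, Aprt, Hfe, Nlrc5, H2-D1, Eef1a1, Xist, Rn45s and the untested or uncalled neighbours. Not every gene under this rule is reported here. Older symbols were matched through Entrez identifiers for Sdhaf3, Sdhaf4 and Emc7. Windows of 75 bases were matched to annotated transcripts on both strands, leaving out genes annotated over the same locus. Pseudogenes outside the annotation were not searched. Genes with copies are uncertain to that degree. Alternatives were DESeq2 1.42.0, other scalings, filters and cutoffs, a replicate block and leaving out each library.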

Additional observations from a re-analysis of the deposited data

How the results depend on the processing

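Hprt and Tbp were the 2 reference genes called under upper quartile, RLE and library size scaling, no filter, filterByExpr, DESeq2 and the replicate block. Leaving out each library gave 2 to 3 called genes, B2m being the third without the siNC library of replicate 3. With a stricter rule (FDR below 0.05, log2 fold change of 1 or more in size), 1 reference gene (Hprt) and 946 of all tested genes were called. Over all genes, leaving out each library gave 2478 to 3704 calls, beside 3879. Calls were 44.6% higher with TMM, 55.6% with upper quartile factors and 68.6% with library size only, which raised the median log2 fold change by 0.15. Replicate numbers did not pair the libraries (correlations of deviations -0.05, -0.15 and -0.34), so no paired fit was the main one. With the replicate block 2796 genes and the same 2 reference genes were called, and counts in the lists of glycolysis, TFIID, cyclophilins, 14-3-3 proteins and succinate dehydrogenase fell to 1 each, while those of actin isoforms and MHC class I presentation rose from 0 to 1. Leaving out each library, the geNorm M of Hprt ran from 0.19 to 0.58 in siNC and from 0.062 to 0.21 in siQk, that of Gapdh in siQk from 0.064 to 0.36, and that of B2m in siNC from 0.19 to 0.31. The cause of these shifts was not tested. Qk relative to each gene moved by less than the spread between replicates in all 72 alternatives run. Gapdh, with 105 to 353 tags, and Ppia, with 253 to 736, are the genes that depth limits.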
